A study of Homo sapiens with 12 samples.

Results

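The transcription factor NF-kB was followed through its genes in HCT116 cells, a human colon cancer line, after the topoisomerase inhibitor camptothecin (CPT) had damaged their DNA. The 10 genes were the subunits NFKB1, NFKB2, REL, RELA and RELB, the inhibitors NFKBIA and NFKBIE, and the target genes TNFAIP3, BIRC3 and CXCL8, taken as a list of pathway members. All probes that the array annotation assigns to these genes were taken, which gave 13 of the 47300 probes and 9 of the 10 genes, since no probe named BIRC3. Of these genes, 8 passed the detection filter and were tested among 10464 genes in all. The remaining gene, REL, was detected on none of the 12 arrays by either of its probes.

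The study used 12 bead arrays (Illumina HumanHT-12 v4) of total RNA from 4 groups of 3 samples. Cells with intact ATF3 (wild type, WT) and cells with ATF3 knocked out (KO) were treated for 4 h with DMSO, the solvent control, or with 1.5 µM CPT, and both genotypes are HCT116. KO cells all carry the clone name E11, so the knockout is represented by 1 clone, in which an exon of ATF3 had been targeted with a recombinant adeno-associated virus. Whether the replicates came from separate cultures is not stated in the labels, so the p-values reflect no more than the spread among the samples at hand, and that spread may be technical. Signals are given as normalized log2 values and differences as log2 differences with their standard error, and a gene was called when its Benjamini-Hochberg adjusted p in limma, over all 10464 genes, was under 0.05.

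NF-kB dimers are held in the cytoplasm by IkB proteins, of which NFKBIA (IkB-alpha) and NFKBIE (IkB-epsilon) are members. The IkB kinase complex marks these inhibitors for destruction, after which the freed dimers bind kappa-B sites in DNA. NFKB1 and NFKB2 encode precursors that themselves act as inhibitors until they are processed to DNA-binding subunits, whereas RELA, RELB and REL carry the activating domains. NFKBIA and TNFAIP3 are also classical targets of the pathway and feed back to shut it off, BIRC3 encodes an inhibitor of apoptosis, and CXCL8 encodes the chemokine interleukin-8. DNA breaks are known to start this pathway from the nucleus, through the kinase ATM and the regulatory subunit of the IkB kinase complex. The arrays measured transcripts only, so neither the location of the subunits nor their activity was read, and in bulk RNA fewer cells with a transcript and less RNA per cell cannot be told apart.

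Promoter sequences of 8 members were found in the RefSeq table for GRCh38.p14, with 12 windows of 250 bases before an annotated start. The kappa-B consensus was searched on both strands as GGGRNWYYCC (R is A or G, N any base, W A or T, Y C or T). Sites that differ from this pattern at any position were not counted. It was found in 7 of these 12 windows, against 5.21% of all 35116 windows of that length. The 7 windows belonged to 6 genes (NFKB1, NFKB2, REL, NFKBIA, TNFAIP3 and BIRC3). The ATF/CRE motif TGACGTCA, which ATF3 is known to bind, was in no member's window and in 1.65% of all windows. The AP-1 motif was also searched on both strands, as TGANTCA, a looser pattern than the site TGA(C/G)TCA that the study names. That pattern was found in CXCL8 alone among the members, where it reads TGACTCA, and in 6.57% of all windows. Such matches describe letters in a window and are not binding sites. The windows of 3 genes are shown because their transcripts carry the responses described next. The NFKBIA and NFKB1 windows shown each hold a kappa-B match, and the CXCL8 window holds the AP-1 match. Whether a match bears on a response was not tested. Capitals mark the kappa-B match in the first 2 and the AP-1 match in the third, and each sequence runs 5′ to 3′ along the strand of the gene up to the base before its start.
NFKBIA, chr14:35404750-35404999, minus strand: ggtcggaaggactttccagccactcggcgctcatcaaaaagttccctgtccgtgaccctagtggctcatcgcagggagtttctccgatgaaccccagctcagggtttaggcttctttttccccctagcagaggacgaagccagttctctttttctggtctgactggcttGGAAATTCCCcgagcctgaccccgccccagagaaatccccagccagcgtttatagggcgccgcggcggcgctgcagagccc
NFKB1, chr4:102501109-102501358, plus strand: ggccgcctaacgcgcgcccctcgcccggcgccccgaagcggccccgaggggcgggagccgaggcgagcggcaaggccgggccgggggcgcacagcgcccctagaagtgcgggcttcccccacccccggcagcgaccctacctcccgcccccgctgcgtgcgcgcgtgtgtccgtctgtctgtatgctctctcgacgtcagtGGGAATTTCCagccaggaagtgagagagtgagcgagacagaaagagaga
CXCL8, chr4:73740319-73740568, plus strand: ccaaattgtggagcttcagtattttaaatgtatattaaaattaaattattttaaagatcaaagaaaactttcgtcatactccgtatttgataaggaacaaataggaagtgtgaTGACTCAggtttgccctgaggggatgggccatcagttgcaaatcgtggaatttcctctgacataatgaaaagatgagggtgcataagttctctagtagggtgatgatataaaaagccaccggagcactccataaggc
The NFKBIA match lies 81 to 72 bases before the start and reads in the orientation of the opposite strand. The NFKB1 match lies 49 to 40 bases before the start, in the upstream of 2 windows listed for the gene. The AP-1 match of CXCL8 lies 137 to 131 bases before its start.

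Median raw signal was 98.2 to 106.8 per array, the arrays detected 13713 to 16823 probes, and the lowest raw signal among detected probes was 106.5 to 118.4. Raw signals of NFKB1 (221.6 to 1296.5) and NFKBIA (593.4 to 1632.9) lay far above that limit on every array. NFKB2 (121.7 to 177.3), RELA (135.8 to 185.7), RELB (111 to 134), NFKBIE (106 to 168.6) and CXCL8 (117.7 to 174.5) lay close to it, and TNFAIP3 (99.2 to 119.9) was detected on 3 arrays only. With CPT, ATF3, the targeted gene, rose by 3.56 ± 0.47 in WT (adjusted p = 0.000203) and by 2.53 ± 0.47 in KO cells (adjusted p = 0.00166), on a probe that may not cover the edited stretch of the gene. Of 8 colon epithelial marker genes, 6 were detected on all 12 arrays and VIL1 on none. Of 5 leukocyte markers with a probe, 3 passed the filter (CD68 on 12 arrays, CD14 on 6 and LYZ on 4), while PTPRC and CD3E were detected nowhere. All 4 endothelial markers were detected nowhere, and of the 5 fibroblast markers none passed the filter. Replicate 1 was normalized apart from replicates 2 and 3 in the authors' values, so results for replicates 2 and 3 alone are also given for CXCL8 and PLAU, where they change a call.

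CPT lowered NFKB1 and raised NFKBIA in both genotypes. CXCL8 rose in WT cells, and the other 5 tested members were not called in either genotype. These calls come from a fit that does not pair arrays by replicate number. When arrays were paired by that number, NFKB2, NFKBIE and CXCL8 were called in both genotypes and TNFAIP3 in KO cells. In that paired fit 49.3% of all genes were called in WT and 48.6% in KO cells. Without the pairing, 3 of the 8 tested members were called in WT cells, 2 higher and 1 lower. Of all genes 31.5% were called there, 13% higher and 18.5% lower. In KO cells 2 of 8 were called, 1 in each direction, where 31.8% of all genes were called, 13.9% higher and 17.9% lower, so neither share stands far from that of all genes. The median member differed by 0.34 in WT and 0.45 in KO cells, against 0.03 over all genes in each, but the WT median turned to -0.08 when arrays were scaled to the median of all probes, a scaling that also moved all genes to a median of -0.30 in WT and -0.19 in KO cells. When arrays were scaled to the median of the kept probes instead, all genes moved to 0.22 and 0.20 and the members to 0.44 and 0.54. The plot of levels on each array shows the 8 tested members side by side.

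**Figure D1:**
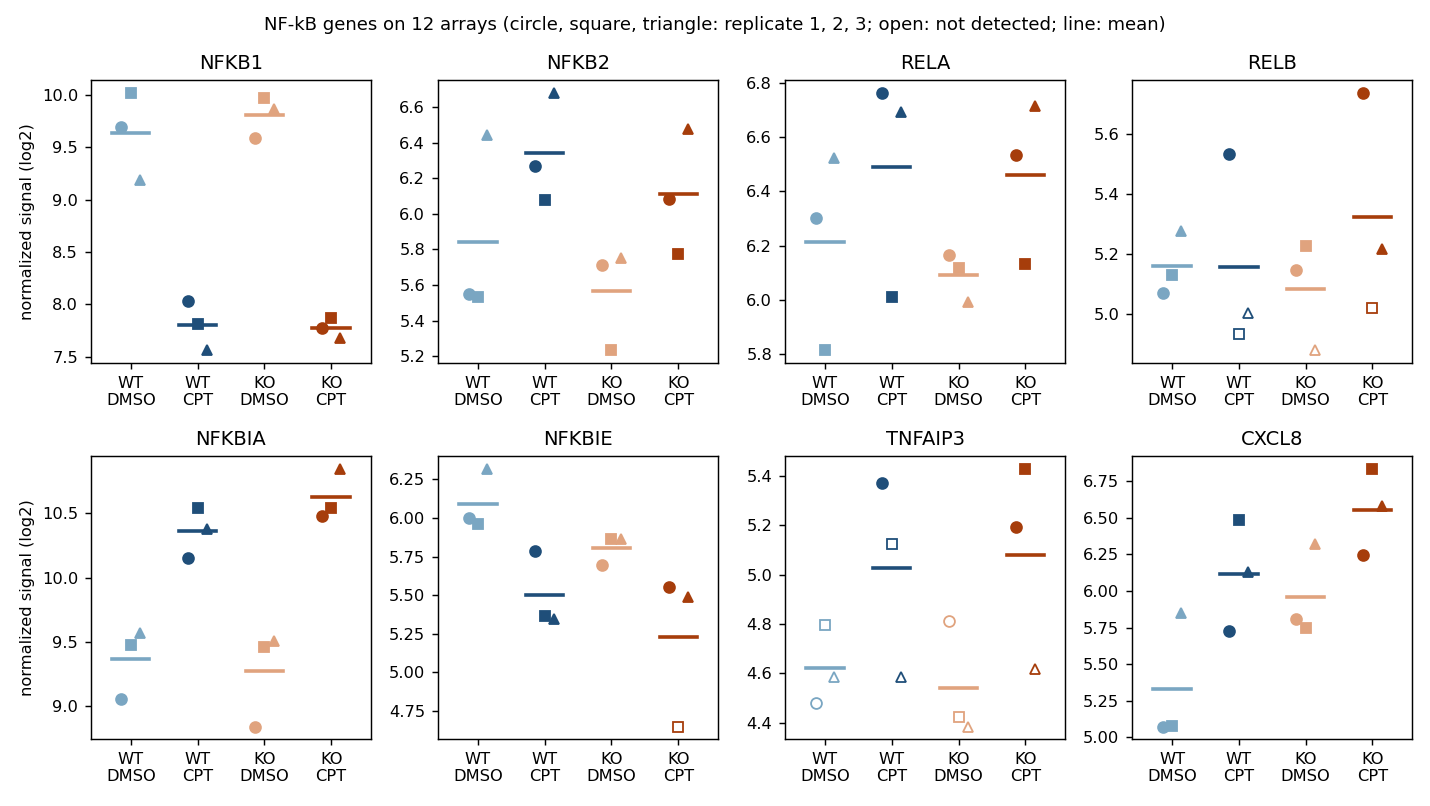
Normalized log2 signal (vertical axes, which differ between panels and do not start at 0) of the 8 tested NF-kB genes on each of 12 arrays in 4 groups (horizontal axis). Circles, squares and triangles are replicates 1, 2 and 3, open symbols mark arrays without detection and lines mark group means. NFKB1 lay between 9.19 and 10.02 without CPT and between 7.56 and 8.03 with it.

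NFKB1 was the subunit gene with the largest response among the members. WT arrays read 9.69, 10.02 and 9.19 with DMSO and 8.03, 7.81 and 7.56 with CPT. KO arrays read 9.59, 9.97 and 9.87 with DMSO and 7.78, 7.87 and 7.68 with CPT. Every CPT array of either genotype lay below every DMSO array. Within a genotype, 22.3% of all genes separated downward in WT and 25.4% in KO cells. NFKB1 fell by 1.83 ± 0.21 on the log2 scale in WT cells (3.57-fold, adjusted p = 0.000107). It fell by 2.03 ± 0.21 in KO cells (4.10-fold, adjusted p = 4.59e-05). Each replicate number showed the decrease, from -1.63 to -2.21 in WT and from -1.81 to -2.19 in KO cells. Both calls held without any single array and under each of the other processing choices that were tried.

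NFKB2, which encodes the other precursor, had higher signals under CPT that did not pass. On its brightest probe, WT arrays read 5.55, 5.53 and 6.45 with DMSO and 6.27, 6.08 and 6.68 with CPT. Among KO arrays the signals were 5.71, 5.23 and 5.75 with DMSO and 6.08, 5.78 and 6.48 with CPT. The groups overlapped in WT cells, where replicate 3 was high under both conditions. They did not overlap in KO cells, with CPT arrays all higher, as for 2463 of all 10464 genes there. Differences were 0.50 ± 0.28 in WT (adjusted p = 0.191) and 0.55 ± 0.28 in KO cells (adjusted p = 0.156). With the replicate number as a block, which compares arrays of 1 replicate with each other, both passed (adjusted p = 0.0174 and 0.0115). In that fit 49.3% of all genes were called in WT and 48.6% in KO cells. The second NFKB2 probe followed the first across the 12 arrays (r = 0.969, a description) and differed by 0.60 in WT and 0.62 in KO cells, and the remaining NFKB2 probe was detected on no array.

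RELA, which encodes the main activating subunit, had signals of 5.81 to 6.52 in WT cells under DMSO and 6.01 to 6.76 under CPT. In KO cells RELA was 5.99 to 6.16 under DMSO and 6.13 to 6.72 under CPT, and treated and untreated arrays overlapped in both genotypes. Its differences were 0.28 ± 0.24 in WT (adjusted p = 0.416) and 0.37 ± 0.24 in KO cells (adjusted p = 0.272), positive values that became -0.21 and -0.0018 when arrays were scaled to the median of all probes. RELB, the partner of NFKB2 in the non-canonical branch, was detected on 8 of the 12 arrays. It measured -0.0031 ± 0.22 in WT (95% interval -0.47 to 0.47, adjusted p = 0.993) and 0.24 ± 0.22 in KO cells (adjusted p = 0.434). The CPT arrays of replicate 1 were the highest for RELB in each genotype, at 5.53 in WT and 5.74 in KO cells. REL, the subunit known from lymphoid cells, had raw signals of 93.2 to 103.1 on 1 probe and 95 to 110.3 on the other, with no detection, so only an upper bound is available for it.

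Of the inhibitors, NFKBIA rose. WT arrays read 9.06, 9.48 and 9.57 with DMSO and 10.16, 10.54 and 10.38 with CPT. KO arrays read 8.84, 9.46 and 9.51 with DMSO and 10.48, 10.54 and 10.84 with CPT. Every CPT array of either genotype lay above every DMSO array. Within a genotype, 1899 of all 10464 genes separated upward in WT and 2463 in KO cells. The rise was 0.99 ± 0.22 in WT cells (1.99-fold, adjusted p = 0.00464) and 1.35 ± 0.22 in KO cells (2.55-fold, adjusted p = 0.000692). Replicates gave rises of 0.81 to 1.10 in WT and 1.08 to 1.64 in KO cells. Both calls held without any single array and under each of the other processing choices that were tried.

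NFKBIE, a second IkB gene, had lower signals under CPT. With DMSO the WT arrays gave 6.00, 5.96 and 6.32, and with CPT they gave 5.79, 5.36 and 5.35. Among KO arrays the signals were 5.70, 5.87 and 5.86 with DMSO and 5.55, 4.65 and 5.49 with CPT, the 4.65 being an array without detection. Treated and untreated arrays did not overlap in either genotype, with CPT arrays all lower, as was the case for 22.3% of all genes in WT and 25.4% in KO cells. The differences of -0.59 ± 0.23 in WT (adjusted p = 0.0722) and -0.58 ± 0.23 in KO cells (adjusted p = 0.0791) did not pass. They passed with the replicate block (adjusted p = 0.0306 and 0.0344) and when arrays were scaled to the median of all probes (adjusted p = 0.00763 and 0.0257).

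**Figure D2:**
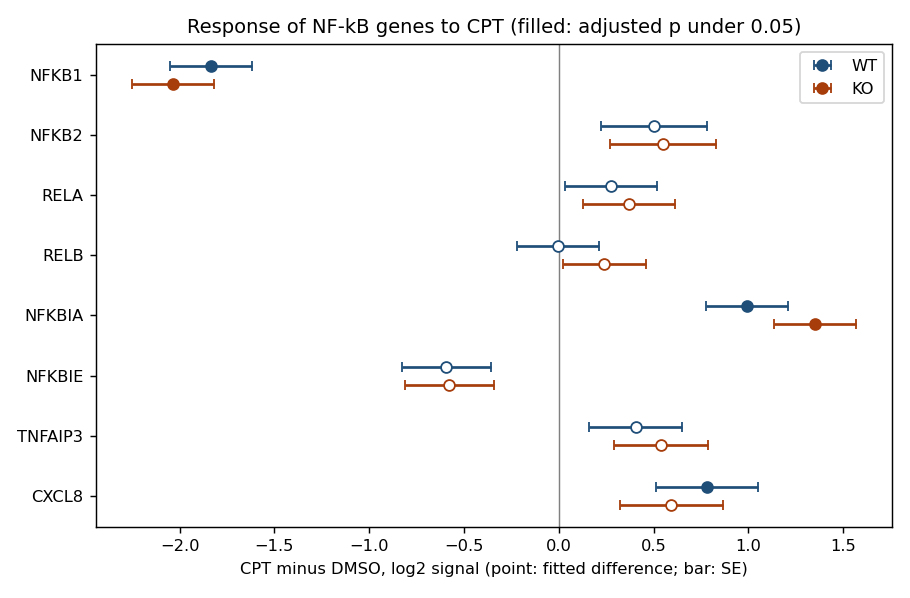
Difference between CPT and DMSO (horizontal axis, log2 signal) for the 8 tested NF-kB genes in WT (blue) and KO (brown) cells, as the fitted value with bars of 1 SE, filled where the adjusted p was under 0.05. NFKB1 lies at -1.83 and -2.03 and NFKBIA at 0.99 and 1.35, with the other genes between -0.59 and 0.78.

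Among the targets, TNFAIP3, which encodes the A20 deubiquitinase that restrains the pathway, was detected on no DMSO array, on 1 of 3 WT arrays under CPT and on 2 of 3 KO arrays under CPT. Its signal was 4.48 to 4.79 under DMSO and 5.37, 5.12 and 4.59 under CPT in WT cells. In KO cells TNFAIP3 was 4.38 to 4.81 under DMSO and 5.19, 5.43 and 4.62 under CPT, so that replicate 3 stayed at the level of the untreated arrays in both genotypes. The fitted differences of 0.41 ± 0.25 in WT (adjusted p = 0.230) and 0.54 ± 0.25 in KO cells (adjusted p = 0.115) did not pass. With DMSO signals raised to at least the lowest detected signal of each array, the mean CPT signal was 1.12-fold higher in WT and 1.15-fold in KO cells. That mean includes CPT arrays without detection, so these folds are not lower bounds. With the replicate block the KO value passed (adjusted p = 0.0321) and the WT value did not (adjusted p = 0.0915). Both passed when arrays were scaled to the median of the kept probes (adjusted p = 0.00703 in WT and 0.00738 in KO cells). That scaling was chosen after seeing the data and moved the median of all genes to 0.22 in WT and 0.20 in KO cells. TNFAIP3 passed the detection filter only through CPT arrays, where its signals were higher, so its p-values are not counted as support for a rise.

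CXCL8 was measured by 2 probes, both detected on all 12 arrays. On the brighter probe, ILMN_2184373, WT arrays read 5.07, 5.08 and 5.85 with DMSO and 5.73, 6.49 and 6.13 with CPT. KO arrays read 5.81, 5.75 and 6.32 with DMSO and 6.25, 6.83 and 6.58 with CPT. Treated and untreated arrays overlapped in both genotypes, and each replicate number gave a positive difference in each genotype. The rise in WT cells was 0.78 ± 0.27 (1.72-fold, adjusted p = 0.0429), and the KO difference of 0.59 ± 0.27 did not pass (adjusted p = 0.114, with the replicate block 0.0350).

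The WT call of CXCL8 was narrow. It was lost without each of 7 arrays (WT DMSO replicates 1 and 2, WT CPT replicates 2 and 3, KO DMSO replicates 1 and 2, and KO CPT replicate 3), with an adjusted p of at most 0.163. It was also lost with replicates 2 and 3 alone (0.85, adjusted p = 0.0898), without background correction (adjusted p = 0.0844), without the detection filter (adjusted p = 0.0839) and when arrays were scaled to the median of all probes (0.41, adjusted p = 0.228).

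The second CXCL8 probe, ILMN_1666733, gave 5.29, 5.30 and 5.02 on WT arrays with DMSO and 5.45, 6.16 and 6.12 with CPT. Among KO arrays the signals were 5.17, 5.46 and 5.85 with DMSO and 5.24, 5.66 and 5.60 with CPT. WT arrays did not overlap on this probe, whereas in KO cells the 3 CPT values lay within the range of the DMSO values. On the probes used for genes, 1899 of all 10464 genes separated upward in WT cells. In a fit of all 17264 kept probes, where 28.4% of probes were called in WT and 28.1% in KO cells, the WT rise was 0.71 ± 0.23 (adjusted p = 0.0387) and the KO difference 0.01 ± 0.23 (adjusted p = 0.983). The genotype difference in response on this probe was -0.70 ± 0.26 (adjusted p = 0.957), and on the brighter probe -0.19 ± 0.29. Across the 12 arrays the pair of CXCL8 probes correlated at r = 0.533, given as a description over arrays that share their groups, so for KO cells the response depends on the probe.

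**Figure D3:**
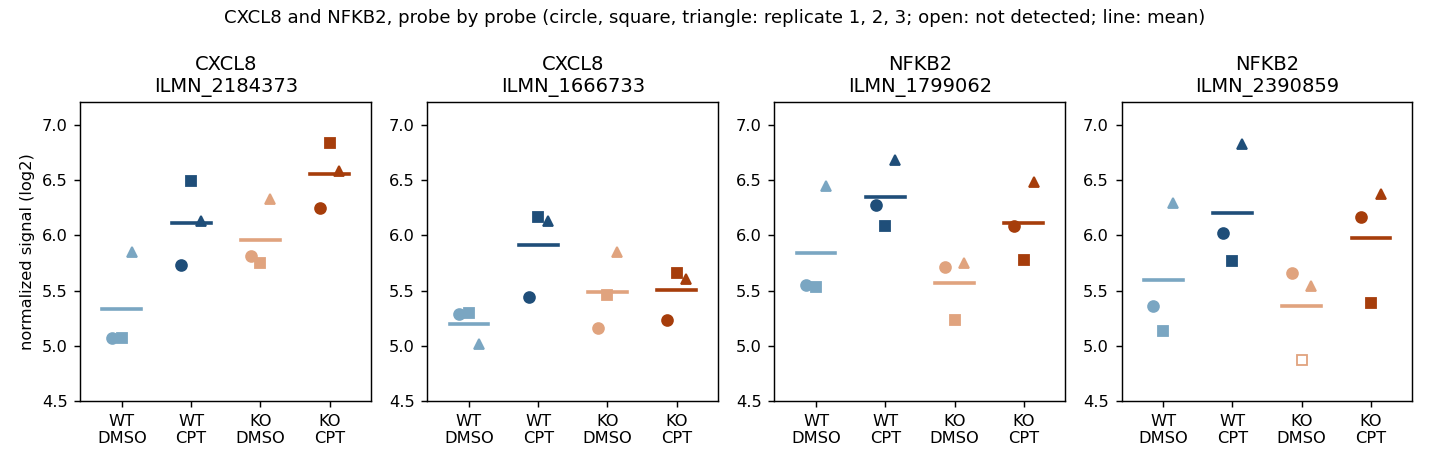
Normalized log2 signal (vertical axis, from 4.5) of the 2 CXCL8 probes and the 2 detected NFKB2 probes on 12 arrays by group, with symbols for replicates 1, 2 and 3, open where not detected, and lines at group means. The NFKB2 probes followed each other over the arrays (r = 0.969), and in KO cells the CXCL8 probes gave CPT minus DMSO differences of 0.59 and 0.01.

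Loss of ATF3 was compared within each treatment. Under DMSO none of the 8 members was called between KO and WT cells by limma, where 1.01% of all genes were called, and 1 had an unadjusted p under 0.05, as did 9.81% of all genes. That member was CXCL8, higher in KO cells by 0.63 ± 0.27 (adjusted p = 0.455), with 0.29 ± 0.23 on its second probe. NFKBIE lay lower on every KO array than on every WT array under DMSO (-0.28 ± 0.23, adjusted p = 0.843), a separation in this direction that 9.11% of all genes showed. Under CPT none of the members was called and none had an unadjusted p under 0.05, where 0.736% of all genes were called and 10.4% were under that p. The members ranged from -0.27 ± 0.23 for NFKBIE to 0.44 ± 0.27 for CXCL8 under CPT, and the lowest adjusted p was 0.668. With the replicate block no member was called either, where 4.48% of all genes were called under DMSO and 4.23% under CPT. For NFKB1 the 95% intervals of KO minus WT were -0.29 to 0.64 under DMSO and -0.49 to 0.44 under CPT. For NFKBIA they were -0.57 to 0.37 and -0.21 to 0.73.

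The response to CPT was then compared between genotypes, with the replicate number as a block. On the probe used for each gene, none of the 8 members and none of all 10464 genes was called by limma (0% called), and 4.85% of all genes but no member had an unadjusted p under 0.05. On these probes the largest member difference was that of NFKBIA, 0.36 ± 0.20 (95% interval -0.07 to 0.79), with replicate differences of 0.54, 0.01 and 0.53. For NFKB1 the difference was -0.20 ± 0.25 (95% interval -0.74 to 0.34), with replicates at -0.15, 0.11 and -0.56. For CXCL8 it was -0.19 ± 0.30 (95% interval -0.84 to 0.46), negative in each replicate. The second CXCL8 probe gave -0.70 ± 0.26 (adjusted p = 0.957 in the fit of all kept probes), larger in size than on any of the probes used. On the probes used, adjusted p was 1.00 for every member, and the intervals together spanned -0.84 to 0.81.

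**Figure D4:**
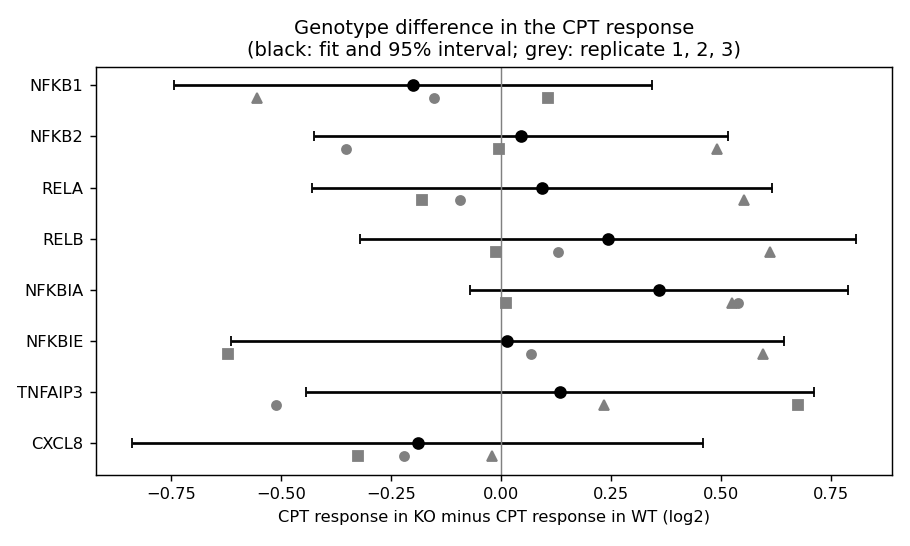
CPT response in KO cells minus CPT response in WT cells (horizontal axis, log2) for the 8 tested NF-kB genes. Black points and bars are the fit and its 95% interval, and grey circles, squares and triangles are the differences of replicates 1, 2 and 3. Every interval includes 0, and the NFKBIA interval runs from -0.07 to 0.79.

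The rest of the pathway was read from a list of 81 further genes in 8 roles, of which 54 were tested. Of the other 27 genes, 4 had no probe and 23 stayed below the filter, 15 of them without detection on any array. Those without detection included the ligands TNF and IL1B, the chemokines CXCL2, CXCL10, CCL2 and CCL20 and the cytokine IL6. In WT cells 6 of the 54 genes rose with CPT and 11 fell, and in KO cells 5 rose and 11 fell. These are shares close to the 31.5% and 31.8% of all genes called, and the medians of 0.05 and 0.12 lay near the 0.03 of all genes. For the counts by role below, 13% of all genes were called higher and 18.5% lower in WT cells. In KO cells 13.9% of all genes were called higher and 17.9% lower. In both genotypes 13 of the genes were called in the same direction. PIDD1, TRAF5, SHARPIN and CFLAR were called in WT cells alone and BCL3, IER3 and CD83 in KO cells alone, with no genotype difference in response called for any of them. With the replicate block CD83 was called in WT cells too (adjusted p = 0.0116). None of the 54 was called between KO and WT cells under either treatment, where 1.01% of all genes were called under DMSO and 0.736% under CPT. At an unadjusted p under 0.05 there were 6 of the 54 under DMSO and 0 under CPT, against 9.81% and 10.4% of all genes. With the replicate block 2 of the 54 were called under DMSO, IER3 higher in KO cells (0.82, adjusted p = 0.0234) and RIPK2 lower (-0.68, adjusted p = 0.0256), where 4.48% of all genes were called.

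NFKBIZ, a nuclear IkB protein that steers the choice of NF-kB targets, had the largest rise of the list in the main fit. With DMSO the WT arrays gave 4.84, 4.89 and 4.43, and with CPT they gave 6.28, 6.45 and 7.51. KO arrays read 5.03, 5.16 and 4.61 with DMSO and 6.58, 6.66 and 7.60 with CPT. All 6 CPT arrays lay above all 6 DMSO arrays, of which 3 detected the gene. Within a genotype, 1899 of all 10464 genes separated upward in WT and 2463 in KO cells. The rise was 2.03 ± 0.34 in WT (adjusted p = 0.000905) and 2.01 ± 0.34 in KO cells (adjusted p = 0.000915). Without background correction it was 0.85 in WT (adjusted p = 0.0086) and 0.89 in KO cells (adjusted p = 0.00663), less than the 1.44 of PLAU in KO cells. Of the other 3 inhibitor genes, BCL3 fell in KO cells (-0.72 ± 0.25, adjusted p = 0.0462) and NFKBIB and NFKBID were not called in either genotype.

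Among 10 kinase genes, 3 fell in each genotype and none rose, where 18.5% of all genes were called lower in WT and 17.9% in KO cells. CHUK, the alpha subunit of the IkB kinase, fell by 1.63 ± 0.25 in WT (adjusted p = 0.000551) and fell by 1.46 ± 0.25 in KO cells (adjusted p = 0.00109). Its signals were 8.24 to 9.21 under DMSO and 6.68 to 7.44 under CPT in WT cells. They did not overlap, as for 22.3% of all genes in that direction. TBK1, an IkB kinase-related enzyme, fell by 1.40 ± 0.20 in KO cells (adjusted p = 0.000326), from 8.62 to 8.80 under DMSO to 7.08 to 7.64 under CPT. MAP3K7, which encodes the TAK1 kinase upstream of the complex, also fell in both genotypes (-0.58 ± 0.16 and -0.55 ± 0.16).

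Of the 6 genes that link DNA damage to the kinase complex, the 2 that fell in both genotypes were ERC1 and the ubiquitin-conjugating enzyme gene UBE2N. ERC1, a regulatory partner of the IkB kinase, fell by 1.57 ± 0.25 in WT (adjusted p = 0.000679) and fell by 1.56 ± 0.25 in KO cells (adjusted p = 0.000672), with detection on 1 of 3 WT arrays under CPT. Its other kept probe gave 0.95 (adjusted p = 0.234) and 0.33 (adjusted p = 0.706), so the ERC1 result holds for 1 of its probes. PIDD1, a p53-induced death domain protein that sends the damage signal to the kinase, rose in WT cells by 1.02 ± 0.21 (adjusted p = 0.00288). The PIDD1 signal was 5.08 to 5.42 under DMSO and 6.11 to 6.67 under CPT in WT cells, and 5.32 to 5.80 and 5.79 to 6.19 in KO cells, where it did not pass (0.33 ± 0.21, adjusted p = 0.251). The difference between genotypes in the PIDD1 response was -0.70 ± 0.27 (adjusted p = 0.927).

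Among 6 deubiquitinases and partners 2 were called in each genotype, both lower, where 18.5% of all genes were called lower in WT and 17.9% in KO cells. OTULIN, which removes linear ubiquitin chains, fell by 1.41 ± 0.21 in WT (adjusted p = 0.000498) and by 0.98 ± 0.21 in KO cells (adjusted p = 0.00455). Its WT signals were 7.04 to 7.43 under DMSO and 5.77 to 6.11 under CPT. ITCH, a ubiquitin ligase that works with A20, was detected on all 6 DMSO arrays and on no CPT array. Its fitted differences were -1.35 ± 0.18 in WT (adjusted p = 0.000195) and -1.68 ± 0.18 in KO cells (adjusted p = 4.34e-05). They rest on CPT signals below detection. Against the lowest detected signals, ITCH was lower under CPT by at least 1.71-fold in WT and 2.27-fold in KO cells. ITCH passed the detection filter only through the DMSO arrays, where it was higher, so these p-values are not counted as support for a fall. Of 10 adaptor and ubiquitin enzyme genes, 1 rose and 2 fell in WT cells and 1 fell in KO cells, against 31.5% and 31.8% of all genes called in either direction. TRAF3 was the gene called in both genotypes. It was detected on all DMSO arrays and on no CPT array, and was lower by at least 1.11-fold in WT and 1.07-fold in KO cells. TRAF5, which fell in WT cells, was detected on 2 of 3 WT DMSO arrays and on no WT CPT array, with no bound available. Both genes passed the detection filter only through DMSO arrays, where they were higher.

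Among 5 tested receptor genes, CD40 rose and TNFRSF1A, the main TNF receptor, fell in both genotypes. CD40 rose by 0.97 ± 0.19 in WT (adjusted p = 0.00282) and by 0.63 ± 0.19 in KO cells (adjusted p = 0.0269). Its other kept probe gave 0.00481 and -0.16, neither called, and the KO call was lost without each of 4 arrays (KO DMSO replicates 2 and 3, KO CPT replicates 1 and 3), with an adjusted p of at most 0.114. The WT rise of CD40 did not pass when arrays were scaled to the median of all probes (adjusted p = 0.133), on the authors' values (adjusted p = 0.110) or on the mean of its probes (adjusted p = 0.0726), and the KO rise did not pass under these 3 settings either (adjusted p = 0.400, 0.267 and 0.388). The WT rise of PIDD1 did not pass with median scaling (adjusted p = 0.0898) or on the authors' values (adjusted p = 0.0631). Neither of 2 tested ligand genes was called.

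Of 11 further targets, 2 rose and 1 fell in WT cells, where 13% of all genes were called higher and 18.5% lower. In KO cells 3 rose and 1 fell, where 13.9% of all genes were called higher and 17.9% lower. PLAU, which encodes the protease urokinase, read 8.11, 8.44 and 8.42 with DMSO and 10.12, 10.62 and 8.47 with CPT on the WT arrays. On the KO arrays PLAU read 7.12, 7.25 and 8.10 with DMSO and 9.34, 9.23 and 9.39 with CPT. WT CPT replicate 3 stayed near the untreated level, just above the highest DMSO array. KO arrays separated too, with CPT higher, as for 2463 of all 10464 genes in KO cells. PLAU rose by 1.42 ± 0.43 in WT (adjusted p = 0.0259) and by 1.83 ± 0.43 in KO cells (adjusted p = 0.0073, and 0.0873 with replicates 2 and 3 alone). The WT call of PLAU was also lost with replicates 2 and 3 alone, on the authors' values and when arrays were scaled to the median of all probes. SOD2, a mitochondrial antioxidant enzyme, rose by 0.63 ± 0.16 in each genotype (adjusted p = 0.0114 and 0.0116), with 0.71 and 0.63 on its other probe, which was called too. The KO call of SOD2 was lost without KO DMSO replicate 3 (adjusted p = 0.0506), and neither SOD2 call passed when arrays were scaled to the median of all probes (adjusted p = 0.378 and 0.256) or on the authors' values (adjusted p = 0.263 and 0.261).

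**Figure D5:**
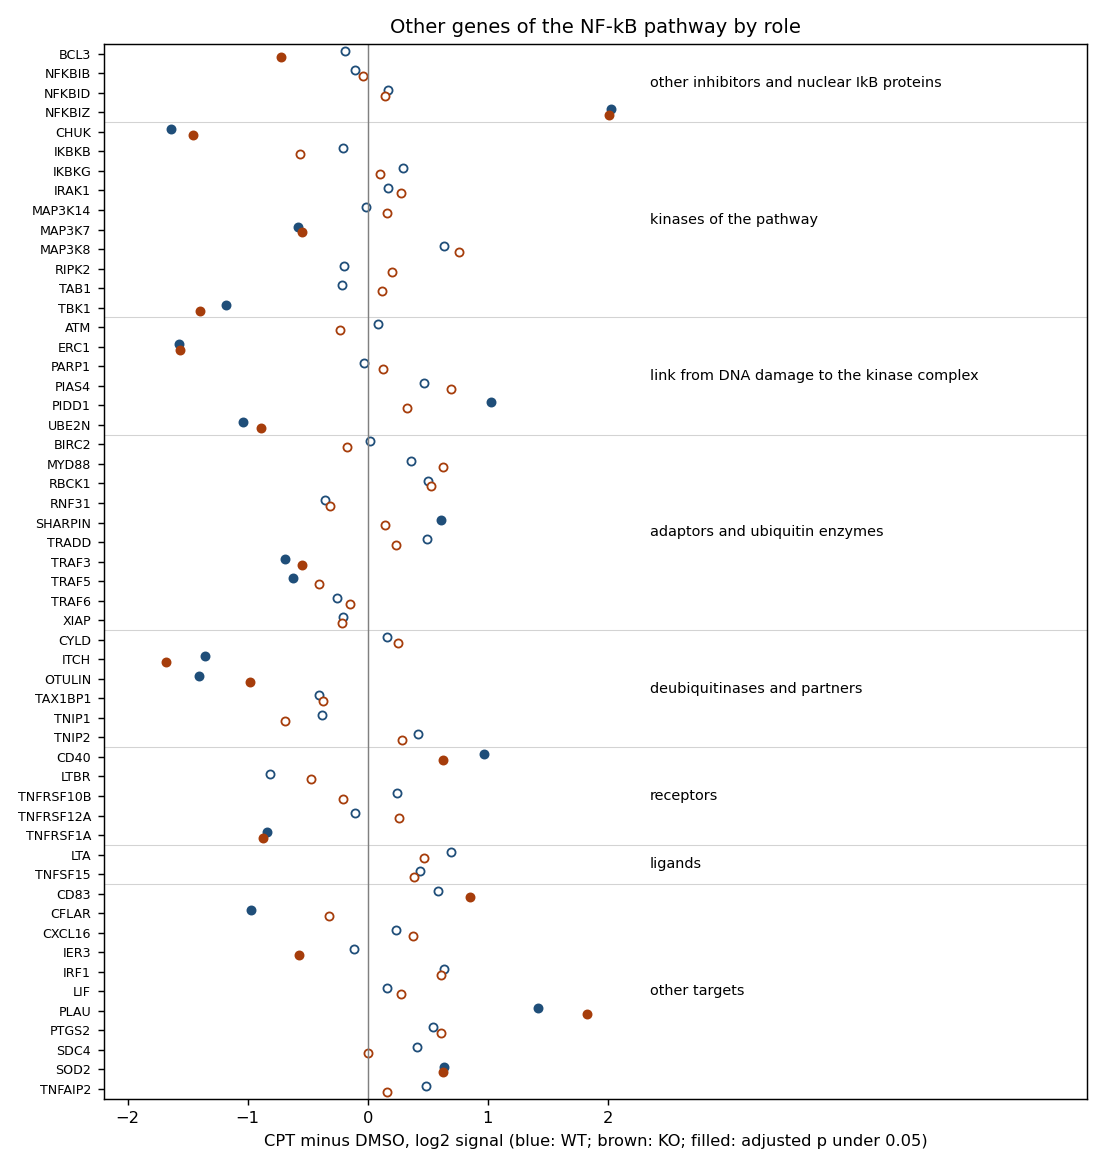
Difference between CPT and DMSO (horizontal axis, log2 signal) for the 54 tested genes of the wider NF-kB pathway, grouped by role from top to bottom, in WT (blue) and KO (brown) cells, filled where the adjusted p was under 0.05. NFKBIZ stands at 2.03 and 2.01, and the lowest values belong to ITCH, CHUK, ERC1, OTULIN and TBK1.

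Patterns most like those of the 2 steadiest members were looked up over the 12 arrays as a description. The genes closest to NFKB1 were B4GALNT1 (Pearson r = 0.998), MALL (r = 0.989) and HS3ST1 (r = 0.989). With CPT in WT cells these differed by -1.19, -1.38 and -3.60. The genes closest to NFKBIA were PELO (r = 0.982), ADPRS (r = 0.969) and ZNF77 (r = 0.966), at 0.89, 0.70 and 0.72. These genes share the arrays, the normalization and the groups with the member they resemble.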

How the data were processed

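Intensity was deposited in 2 kinds of table for the 12 arrays. In the first, the authors exported mean bead signal intensity without normalization, with detection p-values for every probe, and in the second they deposited intensity after background subtraction and quantile normalization in GenomeStudio (version not given in the sources used here). In the second table the 75th percentile was 55.4 for replicate 1 and 31.5 for replicates 2 and 3, so these sets had been normalized separately. It served as an alternative.

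The raw signals were background-corrected with limma nec from the detection p-values (offset 16), put on the log2 scale and quantile-normalized over all 12 arrays. Probes detected at p under 0.01 on at least 3 arrays were kept (17264), and the probe with the highest mean represented each gene. Probe genes came from the platform annotation, in which 30098 probes named 1 gene, 8 several and 17194 none, and symbols were updated by gene identifier through RefSeq (30059 matched, 39 not). Groups were compared by lmFit and eBayes of limma 3.58.1 under R 4.3.3 (two-sided), with group means and 8 residual degrees of freedom, or with the replicate number as a block and 6 for the genotype difference in response, for which the study names a paired test. The script was tested on simulated data. A called gene without detection in a group is given as a bound against the lowest detected signal (at least N-fold), taken per array from normalized means.

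Replicate numbers pair the samples. Deviations from group means correlated at 0.25 to 0.69 in 18 same-numbered pairs of arrays and at -0.59 to 0.03 in 36 differently numbered pairs, and for all 12 arrays the best partner had the same number.

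The members, the wider gene list and its roles were chosen with earlier results of these data known. Of the wider list, called genes with the smallest adjusted p are named (at most 4 in each direction per comparison), and others that complete a count were named after their values were seen. For likeness, the 3 genes with the highest correlation are named. Alternatives were no background correction, median scaling of each array, the authors' values, other detection filters, the mean of a gene's probes, replicates 2 and 3 alone, the block, and each array left out in turn. Median scaling over the kept probes was chosen after seeing the data. The number of arrays limits the precision.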

Additional observations from a re-analysis of the deposited data

How the results depend on the processing

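The calls of NFKB1 and NFKBIA held under every alternative and without any single array, in both genotypes. With the replicate number as a block, which pairs the arrays, 5 members were called with CPT in WT cells and 6 in KO cells, in place of 3 and 2, and all genes called rose from 3299 to 5161 and from 3327 to 5085. Between genotypes the block raised all genes called from 106 to 469 under DMSO and from 77 to 443 under CPT, and the difference in response had none with or without it (1 on the authors' values, 2 without background correction, 3 and 4 with median scaling over all and over the kept probes). The block changed no other call of a member. Leaving out single arrays gave 2 to 4 called members with CPT in WT cells and 2 to 3 in KO cells, and 0 in each genotype comparison. With CPT, 22.3% to 34.5% of all genes were called in WT cells in those runs and 22.5% to 36.2% in KO cells. Leaving out an array gave 51 to 160 genes called under DMSO between genotypes and 33 to 92 under CPT.

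With CPT, the authors' values gave 1339 and 1328 genes called, and replicates 2 and 3 alone 2143 and 2196. Between genotypes these 2 alternatives gave 30 and 26 genes under DMSO and 13 and 11 under CPT. Detection on all 12 arrays gave 62 and 26, and median scaling over all probes gave 45 under CPT. Of the genes called with CPT, 41.3% were higher in WT and 43.6% in KO cells, against 8.4% and 15% with median scaling over all probes and 61.3% and 59.8% with median scaling over the kept probes. No called value of a member, of ATF3 or of the 10 wider genes rerun under these alternatives changed sign. The wider list had 17 and 16 genes called with CPT, where 31.5% and 31.8% of all genes were called. On the authors' values it had 7 in each genotype, where 12.8% and 12.7% of all genes were called. With the block it had 26 in WT cells, where 49.3% of all genes were called. Detection on all 12 arrays gave 11 in WT cells, where fewer genes were tested (7478 in all) and 33.4% of them were called. The causes were not tested. For NFKB2, RELA, RELB, NFKBIE, TNFAIP3 and CXCL8, signals near the detection limit bound what these arrays could show.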
